A study of Homo sapiens with 8 samples.

Results

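The E2F transcription factors and the pocket proteins that hold them were followed across 8 arrays of MDA-MB-231 RNA. The members were 10 genes given by name: E2F1, E2F2, E2F3, E2F5, E2F6, E2F7 and E2F8 of the E2F family, and RB1, RBL1 and RBL2 of the pocket protein family. Each had 1 row with a single gene symbol in the deposited table, so all 10 were found among the 22109 genes tested, and none was removed by a filter. MDA-MB-231 is an established triple-negative human breast cancer line with a mesenchymal character, grown from a pleural effusion. There were 3 samples at a low dose, 2 samples at a high dose and 3 untreated controls, 1 array each, and RNA was taken at 24 h. The titles name the agent as wild yam root extract. The treatment protocol describes it as a crude ethanol extract at 15 µg/mL for low and 30 µg/mL for high, both sublethal. The source names of those arrays disagree: the low ones are given as Boswellia serrata extract (128 µg/mL), and the high ones as 3-O-acetyl-β-boswellic acid (46 µg/mL). What the treated cells received is therefore unsettled, and low and high are used here only as names of groups. The controls are labelled as having no treatment, and no solvent control is described. The labels do not say that replicates were separate cultures, so p-values measure only the spread between these samples, which may be technical.

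E2F factors bind promoters of genes for DNA synthesis and cell division, mostly together with a DP partner. E2F1, E2F2 and E2F3 are classed as activators, E2F5 acts as a repressor with pocket proteins, E2F6 represses without them, and E2F7 and E2F8 are atypical repressors that need no DP partner. In quiescent or arrested cells the retinoblastoma protein (RB1) and its relatives p107 (RBL1) and p130 (RBL2) bind E2F factors and hold their targets down. Cyclin-dependent kinases of G1 phosphorylate the pocket proteins and release the factors. With the MuvB proteins, RBL1 or RBL2 forms the DREAM complex, which represses cell cycle genes.

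Values are log2 expression values as deposited, so a difference of 1 is a 2-fold change. Precision is limited by the array number, and without a measure of background a dim gene may also be an unexpressed one. Within groups, correlations between arrays over the 22109 genes were 0.972 to 0.994. Of the 8, control 3, low 3 and high 2 had the lowest upper quartile in their groups, and values without them are given where a result rests on them. The luminal markers ESR1 and PGR were dim (means over 8 arrays of 1.86 and 1.35). Others of the luminal and epithelial list ran from 2.82 for GATA3 to 4.92 for EPCAM and 7.55 for KRT19. VIM, CD44, AXL and FN1, high in mesenchymal cells, were at 8.37 to 9.62. CDH2, SPARC and TWIST1 of that mesenchymal list were dim, at 1.20 to 2.12. Of the leukocyte markers PTPRC was at 1.13 and CD68 at 8.14. The summed level of that list, as a mean over its 6 measured genes, was 2.73 to 2.80 in low, 2.69 to 2.81 in high and 2.55 to 2.66 in control arrays. Its part in the results below was not tested. The endothelial list had 4 measured genes, none above 3.15, and the fibroblast list 4, none above 3.56.

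At the low dose the atypical repressor gene E2F8 and the pocket protein gene RBL1 fell, to 0.422 and 0.475 of the control level. At the high dose E2F8 and the activator gene E2F2 fell, to 0.529 and 0.480 of control. E2F2 was dim, at means of 1.81 in high and 2.87 in control arrays, where signal cannot be separated from background, so the size of its fall is uncertain. No member passed as higher, and E2F7 was the single member above control in both comparisons. RB1 and RBL2 were not called in either comparison. No member differed between high and low by the test. A gene was called at a Benjamini-Hochberg adjusted p under 0.05 over all 22109 genes, from limma fitted on all 8 arrays. In that fit, 2 of 10 members were lower in low arrays, against 1.81% of all genes, and none was higher, against 1.19%. In the high comparison 2 of 10 were lower, against 0.389% of all genes, and none higher, against 0.425%. With the replicate number as a block, 4 members passed at low, with E2F1, E2F8 and RBL1 lower and E2F7 higher. Over the control and low arrays alone that block gave 3, without E2F7. Without a block, the low count was 1 when control 1 or low 2 was left out. The high count was 0 without control 1, control 2, low 1, low 2, high 1 or high 2, and 4 without control 3. Both comparisons use the same 3 control arrays.

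The 250 bases before the annotated start were searched for exact words of the E2F consensus, since several members are known targets of E2F themselves. Shown are the members with a match, and E2F7, whose values were higher in treated cells and which had none. The letters searched were only TTTCGCGC and TTTGGCGC, on both strands, and matches stand in capitals. Other forms of the consensus were not searched. Sequences are from RefSeq on GRCh38.p14, 5′ to 3′ on the strand of the gene: E2F1 at chr20:33686386-33686635, minus strand, E2F2 at chr1:23531234-23531483, minus strand, RBL1 at chr20:37095998-37096247, minus strand, and E2F7 at chr12:77065570-77065819, minus strand.
E2F1: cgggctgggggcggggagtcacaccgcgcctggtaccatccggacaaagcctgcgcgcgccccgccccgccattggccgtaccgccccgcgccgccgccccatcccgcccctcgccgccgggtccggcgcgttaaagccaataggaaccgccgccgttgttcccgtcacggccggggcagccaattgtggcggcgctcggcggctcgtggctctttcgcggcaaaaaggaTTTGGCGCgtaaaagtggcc
E2F2: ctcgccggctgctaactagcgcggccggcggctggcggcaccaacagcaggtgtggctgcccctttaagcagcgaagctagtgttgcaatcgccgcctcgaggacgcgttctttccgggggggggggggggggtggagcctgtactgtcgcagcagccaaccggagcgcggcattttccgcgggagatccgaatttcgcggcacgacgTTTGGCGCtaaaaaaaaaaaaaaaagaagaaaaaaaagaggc
RBL1: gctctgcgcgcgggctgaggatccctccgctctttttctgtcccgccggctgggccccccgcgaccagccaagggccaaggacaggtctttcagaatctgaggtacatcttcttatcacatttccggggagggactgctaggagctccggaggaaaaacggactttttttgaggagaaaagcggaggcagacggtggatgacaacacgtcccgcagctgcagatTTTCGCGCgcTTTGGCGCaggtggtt
E2F7: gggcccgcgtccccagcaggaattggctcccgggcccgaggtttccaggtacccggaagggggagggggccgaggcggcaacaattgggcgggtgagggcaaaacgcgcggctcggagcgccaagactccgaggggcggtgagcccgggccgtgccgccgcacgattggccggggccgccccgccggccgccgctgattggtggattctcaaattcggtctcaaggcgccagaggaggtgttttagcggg
E2F1 held 1 match, beginning 20 bases before the start. E2F2 held 1, beginning 42 bases before it. RBL1 held both words, at 26 and 16 bases before the start. Of 8 members with an entry, 3 held a match in any of their 10 entries. Counted by entry rather than by gene, 0.968% of 35116 promoters of the same length held one. E2F3, E2F6, E2F7, RB1 and RBL2 held neither word in their entries, and all of these but E2F7 had negative differences from control. E2F5 and E2F8 had no entry and were not searched. The entry of RB1 lies inside the gene, far from its first base, so the bases before its first base were not searched. That entry is counted among the 8 members and is not shown. The cell cycle homology region words TTTGAA and TTTAAA, which the MuvB protein LIN54 is known to read, were in none of the 4 sequences shown. Of the other members, E2F3 held TTTGAA once, 65 bases before the start, and RBL2 held TTTAAA at 187 and 127 bases before it. The words occurred in 13.3% and 11.3% of all promoters. A match of letters is a description of the sequence, not evidence of binding.

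Among the activators, E2F1 drives entry into S phase. Its log2 values were 4.60, 4.97 and 4.23 on low 1, 2 and 3 and 4.46 and 4.25 on high 1 and 2, against 5.30, 5.76 and 4.89 on control 1, 2 and 3. High arrays lay below every control, whereas low 2 reached above control 3. The difference was -0.71 ± 0.24 (SE; low minus control; adjusted p = 0.178) at the low dose and -0.96 ± 0.27 (high minus control; adjusted p = 0.146) at the high dose, and neither passed in limma. The replicate numbers were taken to pair low and control arrays, which correlations between the arrays do not establish. With the replicate number as a block E2F1 passed at the low dose (limma adjusted p = 0.0410, or 0.0444 over these 6 arrays alone). Without control 3, the lowest control, the high difference was -1.17, at an adjusted p of 0.0242.

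E2F2, the second activator, had a low signal on all arrays. It had log2 values of 2.33, 2.56 and 1.89 on the low arrays and 1.83 and 1.79 on the high arrays, against 2.79, 3.05 and 2.76 on the controls. Treated and control arrays did not overlap, and both high arrays lay below every low array. E2F2 fell at the high dose by 1.06 ± 0.21 on the log2 scale (limma adjusted p = 0.0490), a call that held in 8 of 15 other settings. It ended when either high array, control 1, control 2, low 1 or low 2 was left out, at adjusted p-values of 0.0647 to 0.295. The call also ended in a fit on high and control arrays alone. At the low dose the difference was -0.60 ± 0.19 (adjusted p = 0.137).

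E2F3, the third activator, gave 5.38, 5.28 and 5.06 on the low arrays and 5.31 and 4.38 on the high arrays, against 5.71, 5.40 and 5.25 on the controls. High 2 stood far below the other arrays, and high 1 fell within the control range. The differences were -0.21 ± 0.23 at low and -0.61 ± 0.26 at high (adjusted p = 0.785 and 0.312), and without high 2 the high difference was -0.15. E2F3-IT1, a long non-coding RNA annotated within the gene, had a like pattern, with 4.53 and 3.56 on the high arrays against 4.63, 4.74 and 4.64 on the controls. Its difference at high was -0.62 ± 0.24 (adjusted p = 0.272).

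**Figure D1:**
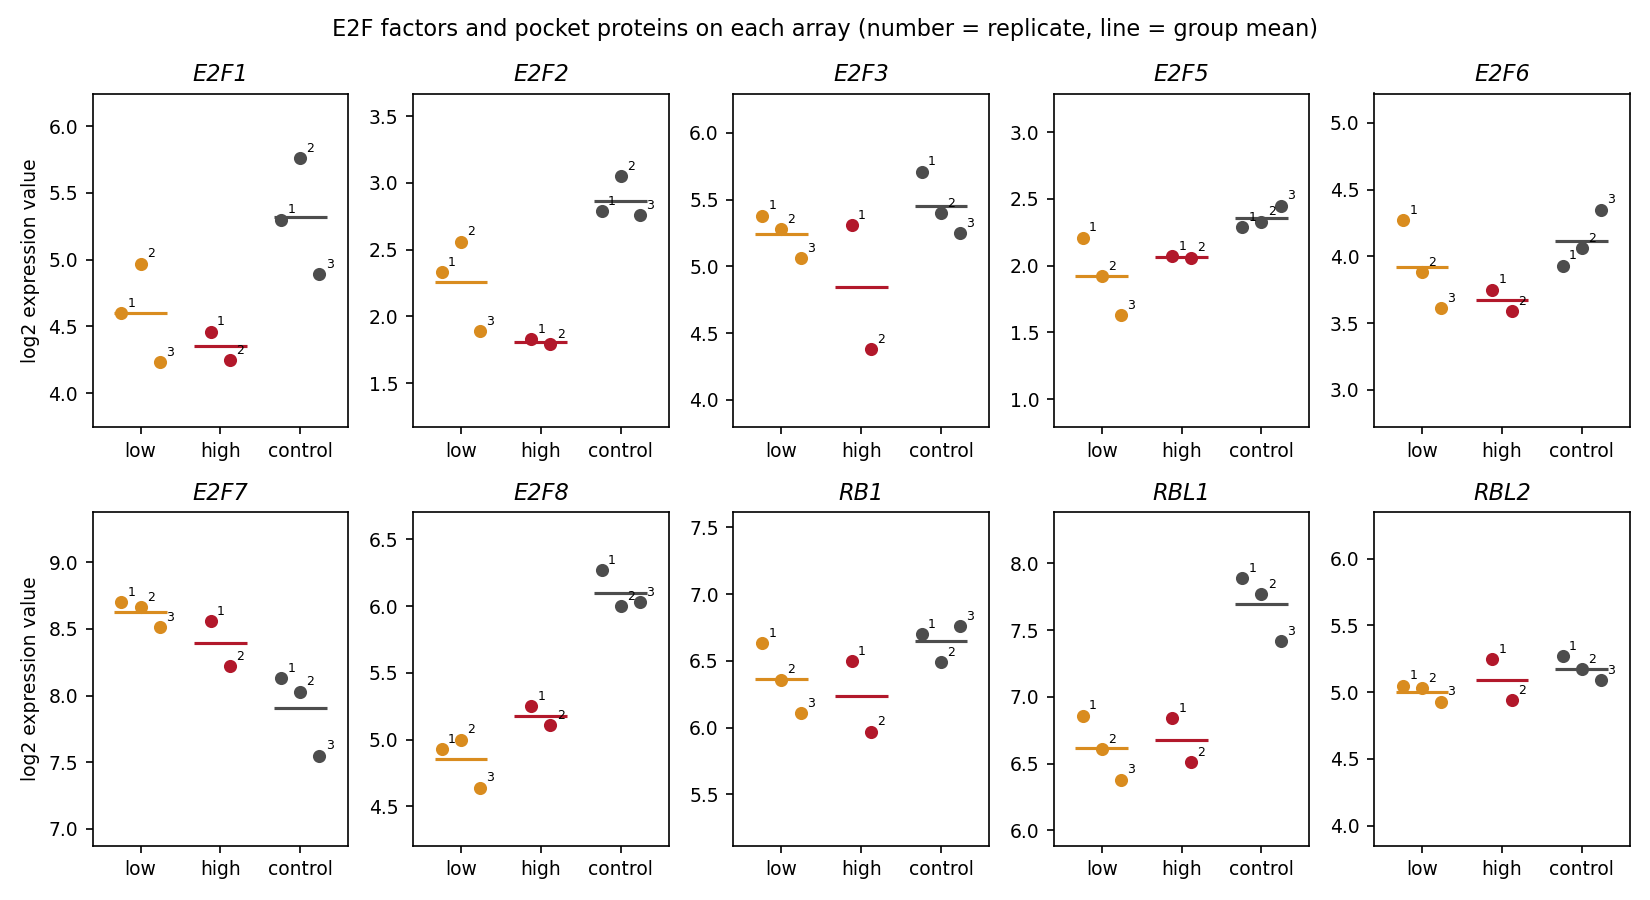
Log2 expression value (vertical axis) of each member on each array, with low, high and control groups from left to right, small numbers for the replicate and a line at the group mean. All panels cover the same span of log2 units. E2F2, E2F5, E2F8 and RBL1 show the treated arrays below all controls, by smaller steps for E2F2 and E2F5, and E2F7 shows them above.

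E2F5, which partners RBL2 in resting cells, had a low signal throughout. Its log2 values were 2.21, 1.92 and 1.63 on the low arrays and 2.07 and 2.06 on the high arrays, against 2.29, 2.33 and 2.45 on the controls. All treated arrays lay below all controls, but by small steps. The differences of -0.44 ± 0.17 at low and -0.29 ± 0.19 at high did not pass (adjusted p = 0.262 and 0.519). RBIS, annotated as overlapping E2F5, had differences of -0.33 and -0.16 that did not pass either.

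E2F6 recruits a variant Polycomb complex rather than a pocket protein. It gave 4.27, 3.88 and 3.61 on the low arrays and 3.75 and 3.59 on the high arrays, against 3.93, 4.06 and 4.35 on the controls. Low arrays overlapped the controls, while both high arrays lay below them all. Its differences were -0.20 ± 0.19 and -0.45 ± 0.22 (low and high minus control; adjusted p = 0.755 and 0.372). Without control 3, low 3 and high 2 the low difference was 0.08.

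E2F7 and E2F8 carry duplicated DNA-binding domains and are known to repress E2F1 and other E2F targets late in the cycle. E2F7 had 8.70, 8.66 and 8.51 on the low arrays and 8.56 and 8.22 on the high arrays, against 8.13, 8.03 and 7.55 on the controls. Every treated array lay above every control. The difference was 0.72 ± 0.19 at the low dose, a ratio of 1.65, and 0.49 ± 0.21 at the high dose (limma adjusted p = 0.0671 and 0.312). At the low dose it passed in 6 of 17 other settings. Among them were the replicate block (adjusted p = 0.0259, but 0.0569 over the 6 control and low arrays alone) and quantile normalization (adjusted p = 0.0172). Without control 3, low 3 and high 2 it was 0.60 (adjusted p = 0.0357). The high difference was 0.31 without control 3, the lowest control, and 0.32 without high 1.

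E2F8 was the member called in both comparisons with control. Its log2 values were 4.93, 5.00 and 4.64 on the low arrays and 5.25 and 5.11 on the high arrays, against 6.27, 6.0 and 6.03 on the controls. The highest treated array lay below the lowest control by more than the spread within any group, and low lay below high. E2F8 fell by 1.24 ± 0.16 on the log2 scale at the low dose (adjusted p = 0.00292) and passed in all 17 other settings, with adjusted p-values up to 0.0167. With high treatment it fell by 0.92 ± 0.18 (adjusted p = 0.0448), a call that held in 9 of 16 other settings. Leaving out either high array, control 1, control 2, low 1 or low 2 ended the high call, at adjusted p-values of 0.0869 to 0.307, as did a fit on high and control arrays alone (0.112).

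RB1, the retinoblastoma protein gene, had log2 values of 6.63, 6.36 and 6.11 on the low arrays and 6.50 and 5.97 on the high arrays, against 6.70, 6.49 and 6.76 on the controls. Treated and control arrays overlapped. The differences were -0.28 ± 0.19 and -0.41 ± 0.22 (low and high minus control; adjusted p = 0.596 and 0.407), with 95% intervals of -0.71 to 0.14 and -0.89 to 0.06. The high difference was -0.15 without high 2 and -0.68 without high 1, and the low difference was -0.16 without low 3. LPAR6, annotated inside RB1, was dim, at 1.07 to 1.67 on low, 1.29 and 1.40 on high and 1.57 to 1.77 on control arrays. The neighbouring non-coding RNA RB1-DT was between 1.41 and 1.67 on all 8 arrays.

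RBL1 encodes p107, the pocket protein most abundant in cycling cells. It gave 6.86, 6.61 and 6.38 on the low arrays and 6.84 and 6.51 on the high arrays, against 7.89, 7.77 and 7.42 on the controls. No treated array reached the lowest control. RBL1 fell by 1.07 ± 0.19 on the log2 scale at the low dose (adjusted p = 0.0114), which held in 15 of 17 other settings and ended without control 1 or low 2 (adjusted p = 0.0544 and 0.0555). At the high dose the difference was nearly as large, -1.01 ± 0.21, and just missed the threshold (adjusted p = 0.0574). It passed there in 7 of 16 other settings, including quantile normalization (adjusted p = 0.0337) and the fit without control 3 (0.0123).

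RBL2 encodes p130, the pocket protein of quiescent cells. Its values were 5.05, 5.03 and 4.93 on the low arrays and 5.25 and 4.94 on the high arrays, against 5.27, 5.17 and 5.09 on the controls. All 8 arrays lay within a narrow band, with high 1 inside the control range and high 2 below it. The differences were -0.18 ± 0.15 and -0.08 ± 0.17 (low and high minus control; adjusted p = 0.700 and 0.863). Their 95% intervals were -0.51 to 0.16 and -0.46 to 0.29.

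**Figure D2:**
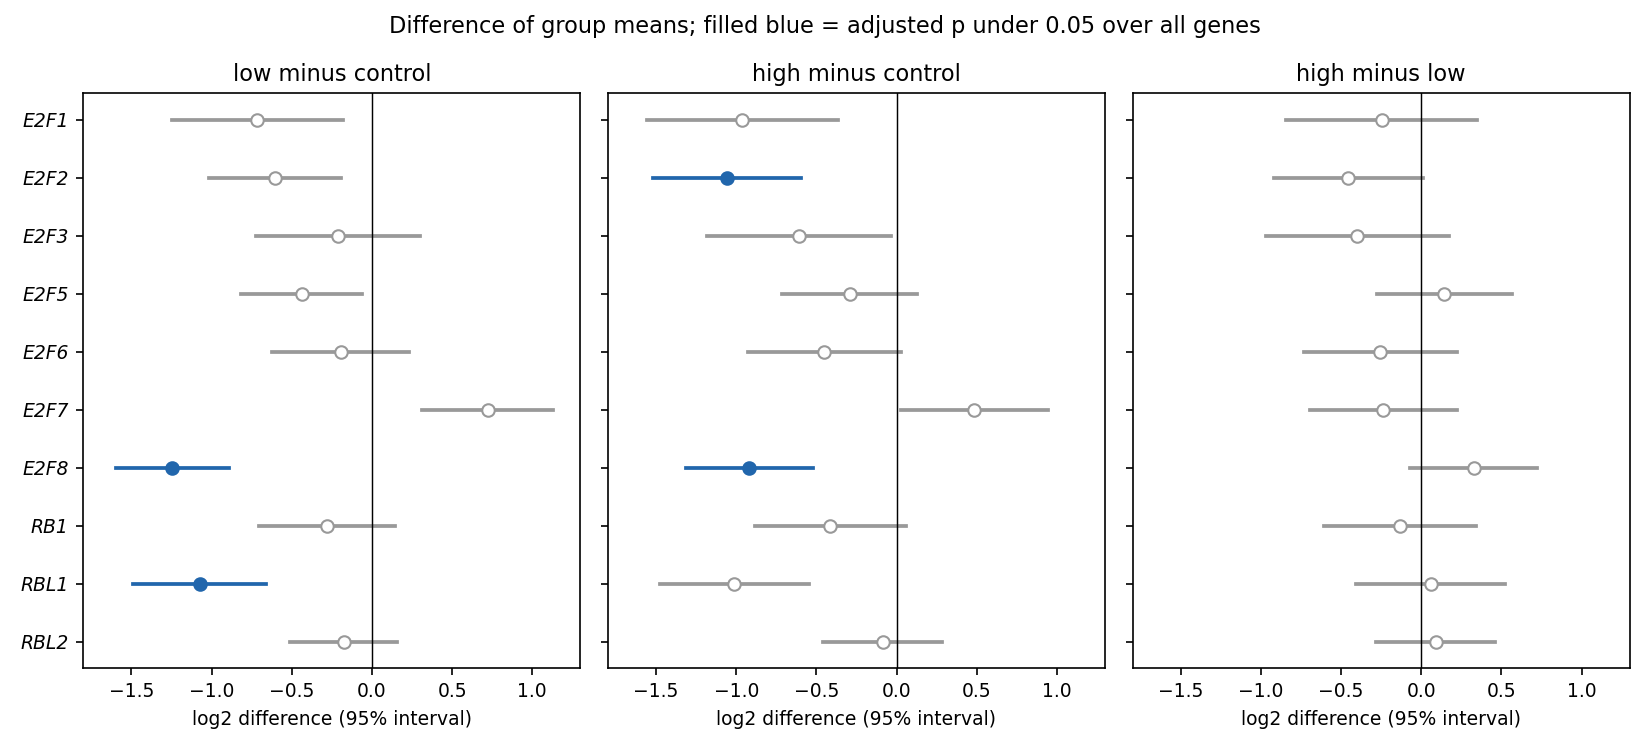
Differences between group means on the log2 scale (horizontal axis) with 95% intervals for the 10 members, for low minus control, high minus control and high minus low. Filled blue marks passed at an adjusted p under 0.05 over all genes: E2F8 and RBL1 at low, E2F2 and E2F8 at high, and none between high and low.

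Read over the whole family, 9 of 10 members had a negative difference in both comparisons with control. The median over members was -0.36 at the low dose, against -0.04 over all genes, and -0.53 at the high dose, against -0.12 over all genes. Low arrays lay wholly below the controls for 5 members, against 13.0% of all genes, and wholly above for 1, against 7.03%. High arrays lay below for 6, against 22.9% of all genes, and above for 1, against 7.07%.

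High and low were then set against each other, which asks whether the groups differed in how far the family moved. No member was called in limma; at an unadjusted p under 0.05 there were also 0 of 10, against 8.66% of all genes. Over all genes 1 passed as higher (0.00452%) and 0 as lower (0%). The difference with the smallest p was E2F2, at -0.45 ± 0.21 (adjusted p = 0.581), followed by E2F8 at 0.33 ± 0.18 (adjusted p = 0.630). Both had arrays that did not overlap, E2F2 below and E2F8 above, as had 16.7% of all genes below and 8.77% above. RBL1 differed by 0.06 ± 0.21, with a 95% interval of -0.40 to 0.52, and RB1 by -0.13, with -0.60 to 0.34. The interval for E2F7, -0.69 to 0.22, also holds 0.

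The partners of the family were described through a list of DP proteins, MuvB subunits and the MYB and FOXM1 factors that join MuvB later in the cycle. Of 11 measured genes 3 fell at the low dose and none rose: FOXM1, the activator of mitotic genes (-1.25 ± 0.20, adjusted p = 0.00796), LIN9, a MuvB scaffold subunit (-1.16 ± 0.19, adjusted p = 0.00796), and MYBL1, a relative of B-MYB (-1.12 ± 0.15, adjusted p = 0.00374). The list median was -0.39 (-0.61 without control 3), against -0.04 over all genes. Against control, high arrays had a fall of MYBL1 alone (-1.02 ± 0.17, adjusted p = 0.0258), with a list median of -0.44 (-0.29 without control 3), against -0.12 over all genes. That call ended without any 1 of control 1, control 2, low 1, low 2, high 1 and high 2, and without control 3 there were 4. E2F4, the main E2F partner of p130, and the partner TFDP1 gave -0.37 and -0.45 at low and -0.75 and -0.68 at high, and did not pass.

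Upstream, 16 genes of G1 cyclins, their kinases and the inhibitors of these kinases were measured. At the low dose 1 rose and 4 fell. CDKN1A, which encodes the inhibitor p21, rose by 2.00 ± 0.30 (adjusted p = 0.00610). The falls were those of CCNE2, encoding cyclin E2 (-1.29 ± 0.16, adjusted p = 0.00256), SKP2, the subunit that marks p27 for destruction (-1.21 ± 0.25, adjusted p = 0.0260), the phosphatase gene CDC25A (-1.0 ± 0.19, adjusted p = 0.0172) and CDK2 (-0.81 ± 0.18, adjusted p = 0.0376). In high arrays SKP2 (-1.44 ± 0.28, adjusted p = 0.0444), CCNE2 (-1.20 ± 0.18, adjusted p = 0.0163) and CDC25A (-1.11 ± 0.21, adjusted p = 0.0439) fell and none rose, CDKN1A giving 1.31 ± 0.34 (adjusted p = 0.116). CDK4 and CDK6, the kinases that start RB1 phosphorylation, did not pass, at -0.25 and -0.06 at low and -0.35 and -0.70 at high. The list medians were -0.29 at low (-0.45 without control 3) and -0.40 at high, against -0.04 and -0.12 over all genes. The count of calls at low, 5, was 2 without control 1, control 2, low 2 or low 3, and 3 without low 1. The count at high, 3, was 0 without control 1, control 2, high 1 or high 2, 1 without low 1 or low 2, and 7 without control 3.

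Downstream, 38 genes of G1/S and replication known as E2F targets were measured. At the low dose 23 fell and none rose, with a median of -0.95, and all 38 had a negative difference. The leading falls were DSCC1, which loads the sliding clamp for cohesion (-1.85 ± 0.20, adjusted p = 0.00126), POLE2 of DNA polymerase epsilon (-1.58 ± 0.16, adjusted p = 0.00104), FBXO5, the early mitotic inhibitor (-1.45 ± 0.26, adjusted p = 0.0121), and the initiation factor MCM10 (-1.40 ± 0.19, adjusted p = 0.00338). DSCC1 and FBXO5 were dim in low arrays, at means of 2.83 and 2.88, against 4.68 and 4.33 in control arrays. The sizes of their falls are therefore uncertain. High arrays showed 12 falls and no rise, with a median of -0.87, and again all 38 differences were negative. They were led by CDC6, which loads the replicative helicase (-1.37 ± 0.24, adjusted p = 0.0277), the uracil glycosylase gene UNG (-1.33 ± 0.19, adjusted p = 0.0129), the helicase subunit MCM6 (-1.32 ± 0.20, adjusted p = 0.0163) and MCM10 (-1.20 ± 0.21, adjusted p = 0.0288). The low count was 14 to 33 when 1 array was left out, the lowest being without control 2, low 2 or low 3 (15 without control 1). The high count was 0 without control 1, control 2, high 1 or high 2, 3 without low 1, 4 without low 2 and 29 without control 3.

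Late cell cycle genes, which DREAM represses and MuvB with MYBL2 and FOXM1 activates, were described last. All 23 measured fell at the low dose, with a median of -1.57, led by NDC80 (-2.01 ± 0.33), NEK2 (-1.86 ± 0.35), CDK1 (-1.84 ± 0.29) and DLGAP5 (-1.82 ± 0.30), at adjusted p-values of 0.00668 to 0.0155. The low median was smaller in size, -1.31, without control 3, and -1.14 without control 3, low 3 and high 2. In high arrays none passed by limma, and 7 of 23 had an unadjusted p under 0.05, as had 14.5% of all genes. The median there was -0.47, but -0.30 without control 3, -0.28 with quantile normalization and -0.13 without control 3, low 3 and high 2. These 4 genes gave -0.60, -0.28, -0.44 and -0.38. Between high and low all 23 were higher at high by a median of 1.04, but none passed by the limma test, with 19 at an unadjusted p under 0.05, as had 8.66% of all genes. Without control 3, 13 of 23 passed as higher, as did 74 of all 22109 genes. Control 3 is not part of this difference, so leaving it out changed only the estimate of spread and not the median. On low and high arrays alone 7 passed, with array weights 3, and with the replicate block or quantile normalization 0. Without control 1, control 2, low 1, low 2 or low 3 none did. Without control 3, low 3 and high 2 together, which leaves 1 high array assumed to vary like the others, the median was 0.998. The mean level of this list was 5.68, 5.58 and 5.21 on the low arrays and 6.59 and 6.33 on the high arrays, against 6.77, 6.73 and 7.44 on the controls, so control 3 stood above the other controls. Without low 3, 15 of 23 were called at the low dose. For the G1/S list these means were 5.35, 5.27 and 4.93 on low and 5.36 and 5.07 on high, against 6.25, 6.26 and 5.92 on control arrays, with control 3 below the others. In bulk RNA, fewer cells in a phase of the cycle and less RNA per cell cannot be told apart.

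**Figure D3:**
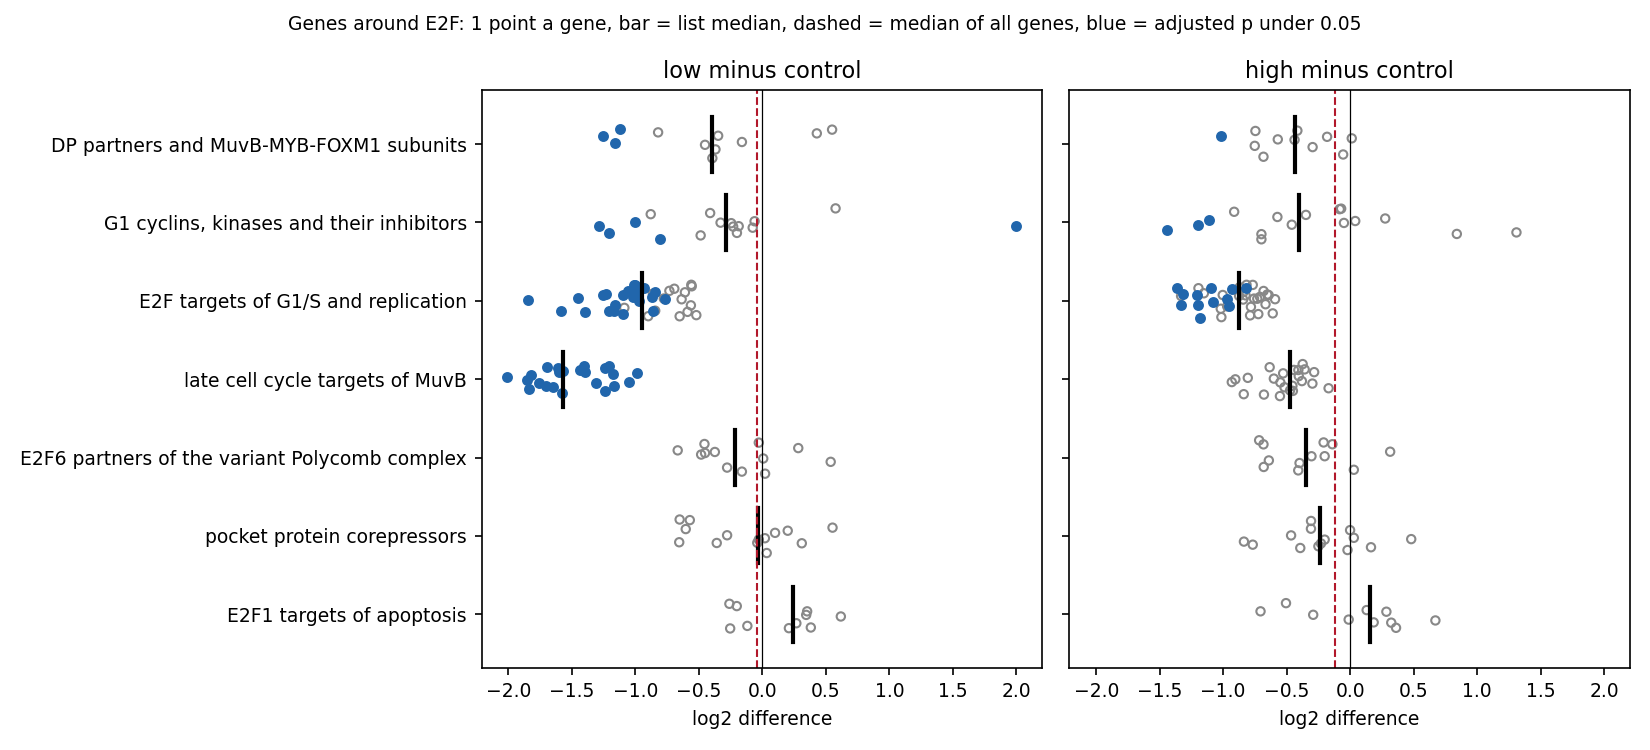
Differences on the log2 scale (horizontal axis) of single genes in 7 lists around the E2F family, for low minus control on the left and high minus control on the right. Black bars are list medians, the dashed line is the median of all genes, and blue points passed at an adjusted p under 0.05. The late cell cycle list lies at a median of -1.57 at low (-1.31 without control 3) and -0.47 at high (-0.30 without control 3), while the G1/S list is at -0.95 and -0.87.

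Other lists held no call by limma as first fitted, without a block or weights, on all genes and arrays as deposited. At an unadjusted p under 0.05 stood 14.1% of all genes at low and 14.5% at high. Of 12 measured partners of E2F6 in the variant Polycomb complex none passed in either comparison, with medians of -0.22 at low and -0.35 at high, and 3 and 4 were under that p. Of 14 corepressors that pocket proteins recruit, none passed, with medians of -0.03 and -0.24. Under that p were 5 at low (4 lower and 1 higher) and 4 at high (3 lower and 1 higher). The lower differences included those of EID1 (-0.65 at low and -0.23 at high), DNMT1 (-0.65 and -0.77) and the histone methyltransferase gene SUV39H1 (-0.60 and -0.84), whereas the deacetylase gene HDAC1 gave -0.03 and 0.03. SIN3B went the other way at low, at 0.55 ± 0.23 (limma adjusted p = 0.282). With the replicate block 1 corepressor passed as lower at low (0 over the 6 control and low arrays alone). At high 2 corepressors and 3 E2F6 partners did, though no pairing was taken for high arrays. Without control 3, 1 corepressor passed as lower at low, and at high 2 did, with 1 E2F6 partner lower and 1 apoptosis gene higher. With quantile normalization 1 corepressor passed as higher at low and 1 at high. At low 1 E2F6 partner and 1 apoptosis gene then passed as higher too. With genes under a mean of 4 left out, 1 E2F6 partner passed as lower at low. Of 10 apoptosis genes known as E2F1 targets none passed in the first fit either, at medians of 0.24 and 0.16, and 1 and 3 were under that p. The largest differences there were those of BBC3 at low (0.62 ± 0.17, adjusted p = 0.0927) and of BID at high (-0.71 ± 0.23, adjusted p = 0.205). HDAC1, HDAC2, TFDP1 and DNMT1 each stand in 2 of these lists.

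The genes most like E2F1, E2F8 and RB1 over the 8 arrays were sought among genes with a mean log2 value of at least 5. Likeness was the root mean square distance between profiles, each centred on its own mean. E2F8 ran closest to RFC5, a clamp loader subunit (0.12 log2), then CCNE2, the recombination gene FIGNL1 and the nuclease gene EXO1 (0.13 to 0.14). E2F1 ran closest to TRAP1, a mitochondrial chaperone gene (0.14), then the maintenance methyltransferase gene DNMT1, TOE1 and RGMB (0.15 to 0.17). RB1 ran closest to PLS3, RABL3, CHD1L and PHACTR4 (0.05 to 0.07). The standard deviations of the 3 members over the arrays were 0.61 for E2F8, 0.53 for E2F1 and 0.28 for RB1, so a small distance is easier to reach for RB1. All profiles share the same arrays, so differences in overall signal between arrays enter each of them.

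**Figure D4:**
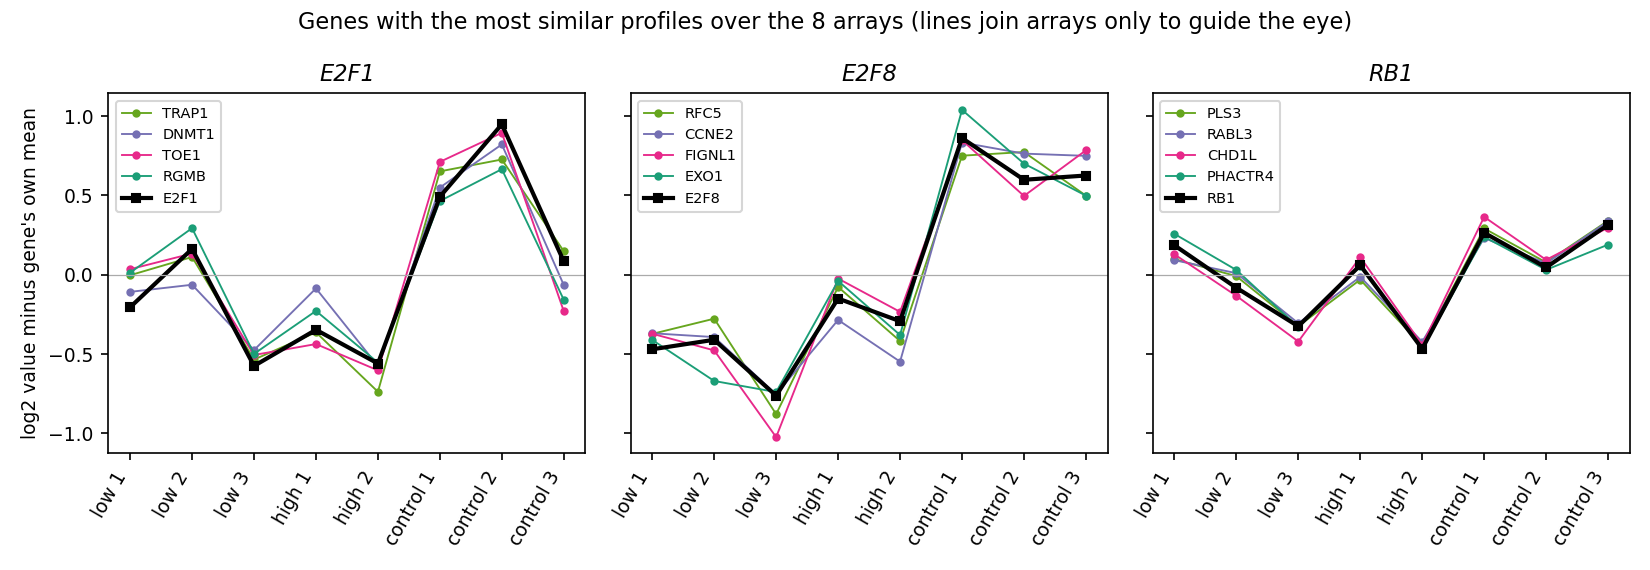
Log2 value minus the gene's own mean (vertical axis) on each array, low, high and control from left to right, for E2F1, E2F8 and RB1 (black) and the 4 genes nearest to each. E2F8 and its neighbours are low on all 5 treated arrays, whereas RB1 and its neighbours are lowest on low 3 and high 2.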

How the data were processed

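Each of 8 samples was hybridised to its own GeneChip whole-transcript array, per the labels' protocols. The deposited table holds log2 expression values of 53617 probe sets. They were made with the Transcriptome Analysis Console, per the submitters' processing notes. Its version, the summarization and the normalization were not given in the sources used here. Base 2 was read from the values, whose maximum is 12.1. Values were used as deposited. Rows were named through the platform annotation: 23558 rows carried 1 symbol, 2155 several, and 27904 were unnamed here. Entrez identifiers matched 22271 of the rows with 1 symbol to a current record, and 3 symbols were updated. Of 618 genes with several rows the row with the highest mean was kept, which left 22109 genes. Group means were fitted with limma 3.58.1 (R 4.3.3; 5 residual and 6.0 prior degrees of freedom) over all 8 arrays, with Benjamini-Hochberg adjustment over all genes of a comparison. The script was tested on simulated data. Samples were grouped by title. Promoters came from RefSeq tables.

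The members, lists and alternatives were chosen with earlier results of these data known. From each list up to 4 called genes per comparison were named by size of change. CDK2, E2F4, TFDP1, CDK4, CDK6, HDAC1, EID1, DNMT1, SUV39H1, SIN3B, BBC3, BID, CDKN1A at high and neighbours of members were named after their values were seen. The titles number replicates. Deviations from group means correlated at 0.103, 0.153 and 0.203 for control and low arrays of the same number, all over 0.1, so these numbers were taken as pairs. Control 1 correlated at 0.122 with low 2, above its value with low 1. The highest value, 0.274, was for low 3 and high 2, of unlike number. Of low and high arrays with the same number, low 1 and high 1 gave 0.214, and low 2 and high 2 gave -0.177. With 2 high arrays, deviations from their mean are exact opposites. Any correlation with high 1 thus recurs with high 2 with its sign reversed, whatever the pairing. These correlations therefore do not establish pairs. For high arrays the values against controls were 0.094 and -0.049, and no pairing was taken.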

Additional observations from a re-analysis of the deposited data

How the results depend on the processing

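Counts of called members moved with the settings. At the low dose, 2 members were called as deposited and 4 with the replicate block (E2F1 and E2F7 added) or with array weights, and 1 to 2 when 1 array was left out. For high, 2 became 4 with the replicate block or array weights (E2F1 and RBL1 added). It became 0 on the arrays of these groups only, and 0 to 4 when 1 array was left out. The block numbers high 1 and high 2 with the other arrays, though no pairing was taken for them. Without high 1 or high 2 the lone high array is assumed to vary like the other groups. Between high and low no setting called a member. E2F8 at the low dose is the one call that held in every setting run. RBL2 at high minus control changed sign in 4 of 16 settings (-0.24 to 0.13) and E2F6 at low in 1 of 16, and neither was ever called.

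Over all genes, 664 calls at low became 1182 with quantile normalization, 1059 with the replicate block (601 over 6 arrays), 2055 with array weights, 1278 without control 3, low 3 and high 2, and 266 (without low 2) to 658 when 1 array was left out. At high, 180 became 459 with quantile normalization, 283 with array medians subtracted, 1228 with the block, 1004 with weights, 46 on the arrays of these groups only, 1563 without the 3 arrays, and 19 (without high 1) to 990 (without control 3) with 1 left out. Between high and low, 1 became 2 (quantile), 0 (filter on dim genes, mean of at least 4), 219 (block), 69 (weights), 53 (these groups only), 220 (without the 3 arrays) and 0 to 174 (without control 3). Quantile normalization changed the split of calls from 264 higher and 400 lower to 612 and 570 at low, and from 94 and 86 to 326 and 133 at high, where it moved the median of all genes from -0.12 to -0.02. Array medians gave 179 and 104 at high. With array weights 1 corepressor passed as higher and 4 as lower at low, and 3 apoptosis genes as higher, where the first fit had none. The cause was not tested. E2F2 and E2F5 at means of 2.37 and 2.12, and E2F6 at 3.93, fell under the dim filter, where signal and background cannot be separated.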
